A study of Mus musculus with 6 samples.

Results

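Far distal intergenic sites are the open chromatin regions of mouse inguinal white preadipocytes that lie outside every annotated gene body and more than 50 kb from any annotated transcription start site (TSS). The ATAC-seq peak intervals of 6 libraries were merged over chromosomes 1 to 19, and a merged region was kept where at least 2 libraries held a peak line with column 9, the −log10 of the q-value, above 2. Of 262759 merged regions 174449 (66.4%) were kept, and 11004 of these (6.31%) met the position rule in mm10 with the GENCODE M21 annotation. The rule used position and detection, not the difference between genotypes. The 2 groups were 3 wild-type libraries (WT) and 3 libraries of double-knockout mice lacking both Hmgn1 and Hmgn2 (DKO). The study's reporting summary gives the WT mice as C57BL/6 and the DKO mice as a B6.Cg stock, on the C57BL/6 background. Any other difference between these stocks cannot be told apart from the knockout. Preadipocytes came from the inguinal fat of mice aged 8 to 12 weeks, were grown on collagen-coated plates and were taken at day 0, before any differentiation medium. The knockout is germline, so every cell of a DKO mouse lacks both proteins. Nothing in the labels ties the 3 libraries of a genotype to separate animals, so every p-value below measures the spread between these libraries, which may be technical.

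ATAC-seq reads where a transposase can enter chromatin, and an accessible region far from a start site is commonly an enhancer, an insulator element or an unannotated promoter. Long stretches of the genome without genes, called gene deserts, often hold enhancers that act over long distances on developmental genes at their edges. HMGN1 and HMGN2 are small proteins that bind nucleosomes without sequence specificity and are found at enhancers and promoters of open chromatin.

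The windows of 8 sites are shown because the results on height, distance and genotype below turn on them. Each runs from 100 bases before to 100 bases after the tallest summit of the region, read from the plus strand of mm10 (GRCm38.p6), and named by the annotated genes on either side. Capitals mark the AP-1, TEAD and RUNX motif letters searched for, on either strand. The first 3 belong to the tallest sites. The next 2 are among the 5 sites farthest from any start site of those listed in all 6 libraries, the sixth was called lower in DKO while listed in every library, and the last 2 were listed in 1 genotype only.
Site between Gm3116 and Gm22034 (chr1:102628197-102628397): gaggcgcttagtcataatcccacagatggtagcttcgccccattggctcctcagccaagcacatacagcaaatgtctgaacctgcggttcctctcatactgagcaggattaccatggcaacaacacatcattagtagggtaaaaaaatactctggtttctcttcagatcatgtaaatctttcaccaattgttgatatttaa
Site between Gm18525 and Gm19050 (chr14:82065391-82065591): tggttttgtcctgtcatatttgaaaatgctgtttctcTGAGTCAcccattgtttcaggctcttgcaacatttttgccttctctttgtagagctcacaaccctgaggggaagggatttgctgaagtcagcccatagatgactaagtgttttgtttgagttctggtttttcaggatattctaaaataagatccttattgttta
Site between Gm17900 and Gm6912 (chr16:46807621-46807821): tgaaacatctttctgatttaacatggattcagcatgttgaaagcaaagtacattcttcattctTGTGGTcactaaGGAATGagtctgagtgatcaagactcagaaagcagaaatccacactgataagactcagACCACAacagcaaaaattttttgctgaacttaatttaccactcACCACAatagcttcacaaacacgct
Site between Gm12004 and 4930554G24Rik (chr11:13523762-13523962): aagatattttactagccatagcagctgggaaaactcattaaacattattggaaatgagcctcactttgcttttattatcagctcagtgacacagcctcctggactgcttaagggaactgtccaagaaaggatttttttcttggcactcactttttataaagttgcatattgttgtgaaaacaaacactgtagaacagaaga
Site between Gm42581 and Gm19102 (chr6:20290609-20290809): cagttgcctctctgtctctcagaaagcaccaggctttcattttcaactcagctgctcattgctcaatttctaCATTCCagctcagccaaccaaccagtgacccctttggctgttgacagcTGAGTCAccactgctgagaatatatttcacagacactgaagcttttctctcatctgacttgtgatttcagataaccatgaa
Site between Gm18443 and Gm19123 (chr1:26291768-26291968): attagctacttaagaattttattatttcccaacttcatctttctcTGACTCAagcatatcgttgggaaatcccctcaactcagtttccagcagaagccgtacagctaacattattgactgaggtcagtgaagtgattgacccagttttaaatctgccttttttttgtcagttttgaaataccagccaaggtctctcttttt
Site between Itih5 and Gm13261 (chr2:10297768-10297968): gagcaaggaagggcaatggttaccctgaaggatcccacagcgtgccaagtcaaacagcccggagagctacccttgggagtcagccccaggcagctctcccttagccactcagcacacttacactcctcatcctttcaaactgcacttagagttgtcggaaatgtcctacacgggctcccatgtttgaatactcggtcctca
Site between Gm5921 and n-R5s92 (chr9:115548042-115548242): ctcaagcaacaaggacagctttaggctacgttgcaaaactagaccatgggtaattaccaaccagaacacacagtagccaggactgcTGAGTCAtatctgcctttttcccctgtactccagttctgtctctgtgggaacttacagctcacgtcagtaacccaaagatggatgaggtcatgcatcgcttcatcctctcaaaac

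Within those windows the AP-1 letters (TGACTCA or TGAGTCA, which are each other's reverse complement) occurred in 3473 members, or 31.6%, against 23.4% of the other kept regions and 12.02% of regions within 1 kb of a start site. AP-1 is the dimer of FOS and JUN family proteins and is a common binder of stromal-cell enhancers. TEAD letters (GGAATG), read by the DNA-binding partners of YAP and TAZ, were in 19.6% of members and 16.1% of the others. RUNX letters (TGTGGT) were in 21.8% and 18.7%. The CTCF consensus, which marks insulators, was found in 1.98% of members and 3.17% of the others, and letters of the CEBP family (TTGCGCAA, TTGCATAA or TTGCACAA) in 3.44% and 2.43%. SP and KLF letters (GGGGCGGGG), typical of CpG-rich promoters, were in 0.373% of members and 7.37% of regions within 1 kb of a start site. The EBF palindrome (TCCC and GGGA set 2 bases apart) stood in 0.645% of members and 0.759% of the others, and the NFI palindrome (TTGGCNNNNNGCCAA) in 6 members. Part of this profile was shared with other regions away from start sites. In gene-body regions more than 50 kb from a start site AP-1 letters were in 28.6%, TEAD letters in 19.1% and RUNX letters in 20.1%. CTCF, CEBP, and SP and KLF matches were in 1.74, 2.90 and 0.353% of that class. Intergenic regions 1 to 50 kb away had AP-1 letters in 27.0%. Among the 1101 tallest members the AP-1 share was 47.7%, with no such share taken for the tallest other regions. A match of letters is a description of the window, not a bound site.

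The regions eligible for the rule covered 371 Mb, or 15.5% of the sequenced bases of chromosomes 1 to 19. They held 29.7 members per Mb, against 80.7 kept regions per Mb in the rest of these chromosomes. Members covered 1.20% of the eligible bases. The median member lay 81.1 kb from its nearest start site, 10% lay more than 170 kb away, and the largest distance was 621 kb. To a protein-coding start site the median distance was 178 kb. Sites were clustered, with a median of 4.00 kb to the next member and 55.4% of members within 5 kb of another.

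By median fold enrichment members were as tall as other regions, and they were nearly as wide. Column 7, the fold enrichment of reads at the summit over the background that the peak caller estimated locally, had a geometric mean over the listing libraries with a median of 4.75 across members and 4.71 across the other regions. The 10th and 90th percentiles for members were 3.56 and 11.6, and 13.7% of members exceeded 10, against 16.6% of the others. Median width was 346 bp against 357 bp. The windows were poorer in G and C, with a median of 43.8% against 47.8% for the others and 55.2% within 1 kb of a start site. The eligible sequence itself had 39.2% GC and 39.4% repeat-masked bases, whereas the windows of members had a mean of 11.1% masked bases, equal to the 11.1% of the others. Every 31-base word of the window was unique in the genome for 10059 members (91.4%), and more than 50% of the words occurred elsewhere for 70 members.

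The 10 tallest members listed in all libraries had geometric means from 25.8 to 36.3. The tallest, chr1:102628106-102628369 in a 416-kb stretch between Gm3116 and Gm22034, read 38.5, 39.4 and 42.2 in WT and 32.4, 32.0 and 34.4 in DKO. It was only 264 bp wide, and 37.4% of the 31-base words of its window occurred elsewhere in the genome, the commonest at 7 places. The part of these other places in its height was not tested. All 3 WT values lay above all 3 DKO values, but the change of −0.16 (SE 0.09, log2) was not called by limma (adjusted p = 0.45).

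The second, chr14:82065076-82065694 between Gm18525 and Gm19050, holds the AP-1 letters TGAGTCA and read 29.2, 25.9 and 36.7 in WT and 29.2, 29.4 and 31.9 in DKO. The third, chr16:46807369-46808135, carries 1 TEAD and 3 RUNX matches and read 28.02, 26.4 and 31.4 against 24.8, 27.8 and 23.5. Both sets of values overlapped between genotypes. A further tall member, chr16:46957033-46957503, sits in the same 535-kb stretch between Gm17900 and Gm6912. It lies 117 kb from Gm6912 and 459 kb from Nectin3, which encodes a cell adhesion protein. Other tall sites flanked known genes: chr13:80557009-80557792 lies 326 kb from Arrdc3, an arrestin-domain gene, and chr9:6454397-6455140 lies 75.5 kb from Pdgfd, a ligand of PDGF receptors. Of the 10, none was called in either direction by limma, with log2 changes from −0.16 to 0.16.

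Listing was the first comparison of the genotypes. Of the 11004 members, 9144, 8875 and 9397 had a peak line in the WT libraries and 8081, 8068 and 7972 in the DKO libraries. As shares these were 83.0% ± 2.37 (SD, n = 3) in WT and 73.1% ± 0.541 (SD, n = 3) in DKO, and the lowest WT library stood above the highest DKO library. The other kept regions were listed at 81.4% ± 1.13 and 80.2% ± 1.02, and there the genotypes overlapped. Among them, gene-body regions more than 50 kb from a start site were listed at 81.0% in WT and 75.2% in DKO. Intergenic regions 1 to 50 kb away stood at 81.8 and 78.7%, and in both classes the genotypes did not overlap. Each deposited list was capped near 300000 lines, so listing is a place within that library's list and not an absolute amount of open chromatin. Members made up 6.38, 6.35 and 6.54% of the regions listed in WT and 5.78, 5.75 and 5.81% of those listed in DKO.

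The gap widened with distance from a start site. Intergenic regions from 1 to 10 kb away were listed at 81.9% ± 1.29 in WT and 79.5% ± 1.04 in DKO (SD, n = 3). Members from 50 to 100 kb away (7226 sites) stood at 83.1% ± 2.13 and 74.8% ± 0.520. From 100 to 200 kb (3094 sites) the shares were 83.0% ± 2.72 and 70.9% ± 0.876, and beyond 200 kb (684 sites) they were 82.7% ± 3.52 and 65.1% ± 0.253. WT shares thus stayed level while DKO shares fell by bin, and in all 3 member bins the genotypes did not overlap. The widening gap was not particular to members. Gene-body regions in the same 3 bins were listed at 80.7, 81.5 and 83.9% in WT and 75.8, 74.4 and 68.9% in DKO, also without overlap. Beyond 200 kb their median log2 change was −0.32, against −0.33 for members. There was no step at the 50-kb limit: regions from 45 to 50 kb (1492) were listed at 82.4 and 75.2%, and members from 50 to 55 kb (1268) at 83.7 and 75.6%.

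**Figure D1:**
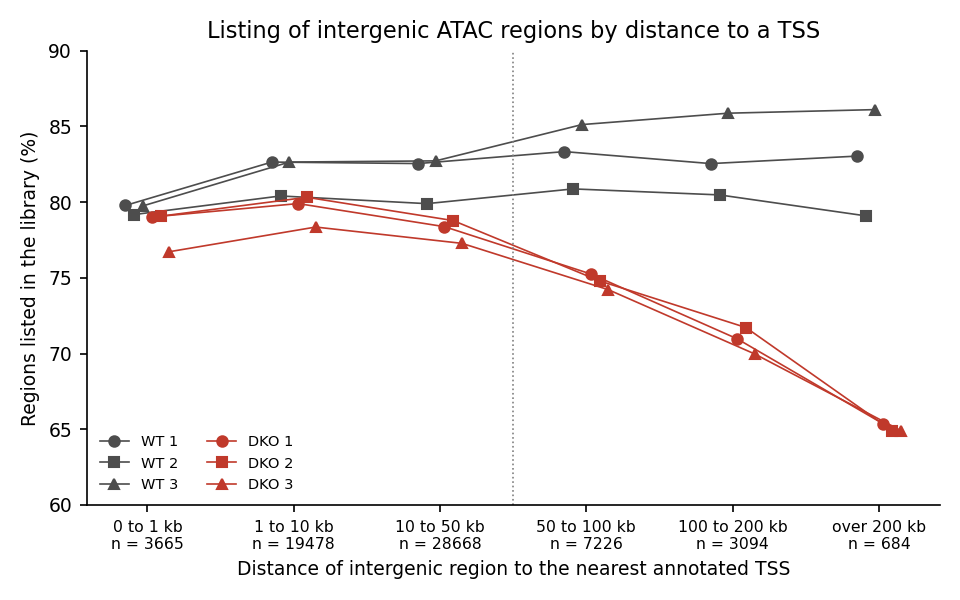
Percentage of intergenic kept regions with a peak line in each of the 6 libraries (y axis, from 60%) by distance to the nearest TSS (x axis, number of regions under each bin). Grey symbols are WT libraries, red symbols DKO libraries, and the dotted line is the 50-kb limit. Beyond 200 kb the WT libraries stood from 79.1 to 86.1% and the DKO libraries from 64.9 to 65.4%.

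Sites listed in 1 genotype only followed the same direction. A line in all 3 WT and no DKO library was found for 332 members (3.02%), against 1.28% of all kept regions. The opposite pattern, all 3 DKO and no WT library, was found for 73 members (0.663%), against 1.19% of all kept regions. Among the other regions the counts were 1894 and 2002, so the ratio was 4.55 for members and 0.946 over all others together. Within those others it was 1.88 (145 and 77) for gene-body regions more than 50 kb from a start site. For intergenic regions 1 to 50 kb away it was 1.27. A looser count gave 3073 members (27.9%) listed by more WT than DKO libraries and 1161 (10.6%) listed by more DKO libraries. Of all kept regions these shares were 18.4 and 14.6%, and of gene-body regions more than 50 kb from a start site 24.2 and 13.2%. Members listed in 1 genotype only were low, with a median height of 4.22 for the WT-only and 3.84 for the DKO-only sites.

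Fewer members than other regions recurred in every library. All 6 libraries listed 5507 members (50.05%) and 56.1% of the others, and only 2 libraries listed 1701 members (15.5%) and 13.4% of the others. The others ranged widely by class. All 6 listed 50.4% of gene-body regions more than 50 kb from a start site, close to members, and 66.1% of regions within 1 kb. Members listed by all libraries had a median height of 7.01, and those listed by 2 a median of 3.76. At heights of 4.25 to 5.47, all 6 libraries listed 42.3% of members and 55.4% of the others. Any pair of WT libraries shared from 76.5 to 79.4% of the members that either listed. The range was 71.7 to 72.7% between DKO libraries and 69.3 to 70.9% between a WT and a DKO library. For the other regions the mean shares were 78.4, 76.8 and 74.9% in that order. Members that passed the q-value limit in exactly 2 libraries numbered 1842 and had a median height of 3.74.

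**Figure D2:**
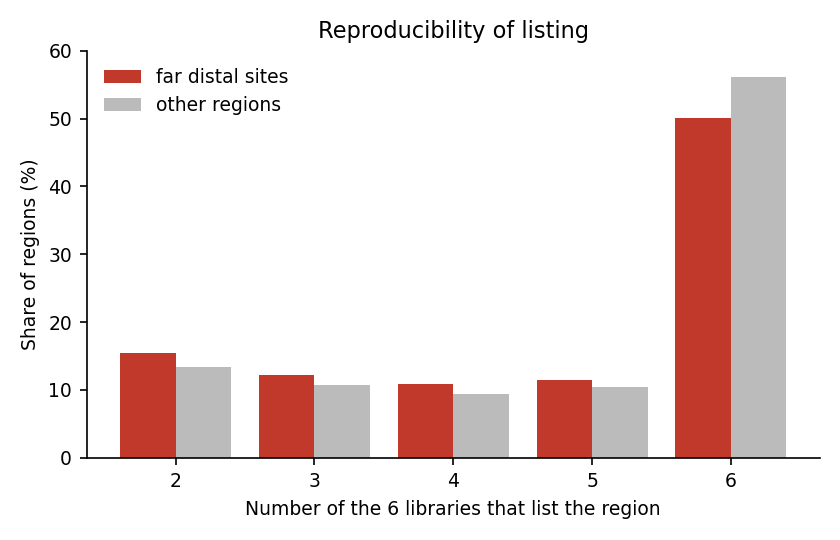
Share of far distal sites (red bars) and of all other kept regions (grey bars) listed by 2 to 6 of the 6 libraries (x axis), in percent (y axis). The bar for all 6 stands at 50.05% for the far distal sites and 56.1% for the others. Among the others, gene-body regions more than 50 kb from a TSS stood at 50.4%.

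Fold enrichment had a negative fitted change for most members. Values were put on a log2 scale, quantile normalized between libraries and fitted with limma over all 174449 regions, with the lowest value of a library's list standing in where the library had no line. Before normalization these lowest values were 1.49 to 1.57, while the commonest listed value was 3.13 to 3.82 by library. A filled-in value can therefore enlarge a fitted change. The median log2 change, DKO minus WT, was −0.13 over members and 0.02 over the other regions, and 63.6% of members had a negative change against 48.5% of all kept regions. Among gene-body regions more than 50 kb from a start site the median was −0.05 and 56.2% were negative. Without scaling between libraries, the median of all regions moved from 0.01 to −0.14, and that of the other regions turned to −0.13. Relative to all regions members stood at −0.14 by the quantile method and at −0.16 with median centring or no scaling. Among the 5507 members listed by all libraries, where nothing was filled in, the median change was −0.08 and 61.4% were negative.

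At an unadjusted p under 0.05 in limma, 1538 members (14.0%) were lower in DKO, against 6.03% of all kept regions, and 329 (2.99%) were higher, against 5.62%. Gene-body regions more than 50 kb from a start site stood between, at 9.06% lower and 4.37% higher. After Benjamini-Hochberg adjustment over all regions few calls were left. Limma called 15 members lower, against a background of 0.0453% of all regions, and 4 higher, against 0.0287%. Of these 19, 12 were listed in 1 genotype alone, so their fold change rests on the filled-in value. Chromosome 18, with 501 members, held 5 of the 19 calls. Leaving out any 1 library took the lower calls to 0, and left 1 higher call without a WT library and 0 without a DKO library, while the unadjusted counts stayed between 1197 and 1497 lower and 291 and 356 higher. The split also moved with the scaling, to 37 lower and 8 higher with median centring and to 2 and 2 with none. Without the eBayes trend limma called 350 lower and 76 higher, and with no scaling the unadjusted counts were 2052 and 132.

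In the limma fit of regions listed by all 6 libraries, 127 members were called lower (2.31%), against 0.642% of the 97204 regions tested, and 8 higher (0.145%), against 0.293%. Members were 5.67% of the regions in that fit and 20.4% of its lower calls. The 127 sites lay on 19 chromosomes and in 117 different stretches between genes, with changes from −1.79 to −0.39 and a median of −0.86. Their windows had a median GC of 40.8%, and AP-1 letters stood in 41.7% of them against 35.8% of all members listed by 6 libraries. CEBP letters were also more frequent, at 4.72 against 3.49%. RUNX letters (17.3 against 22.5%), TEAD letters (18.9 against 21.03%) and the CTCF consensus (1.57 against 2.56%) were less frequent. The CEBP and CTCF shares rest on few of the 127 sites. EBF, NFI, and SP and KLF letters were in none of the 127. Among all members listed by 6 libraries they were in 0.617, 0.0545 and 0.254%, too few for 127 sites to show a difference. These sites were also taller, with a median height of 8.49 against 7.01, and AP-1 letters were commoner among the tallest members. The part of height in the AP-1 difference was not tested. The 8 higher sites had a median change of 0.88 and a median GC of 48.8%.

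Column 8, the −log10 of the peak caller's p-value, gave a median log2 change of −0.14 over members and −0.0015 over all regions. On the percentile scale of each library's listed regions, from 0 to 100, the median member stood at 45.4, 44.7 and 44.7 in WT and 44.3, 45.2 and 44.4 in DKO, and the genotypes overlapped. That comparison covers only the members a library lists. In each library the other regions stood higher, at 49.9, 50.3 and 50.4 in WT and 50.2, 50.3 and 50.4 in DKO. Over the 5507 members listed by all 6 the median ranks were 63.3, 62.7 and 64.2 in WT and 59.5, 58.9 and 58.2 in DKO, and did not overlap. Limma on quantile-normalized log2 values of column 8 called 7 members lower and 4 higher over all regions, against 0.0378 and 0.0327%. These counts were 152 and 36 with median centring, 59 and 4 with no scaling, and 0 and 0 without any 1 library. Over the regions listed by all 6 it called 130 lower and 15 higher, against 0.748 and 0.836%. Of the 135 members called by column 7 in the latter set, 117 were also called by column 8.

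GC content moved with the change. Members with a GC of 35 to 40% (2302 sites) were listed at 83.2% in WT and 67.1% in DKO with a median log2 change of −0.30. Those with 45 to 50% (2903) stood at 82.8 and 76.3% with −0.07, and those above 55% (369) at 83.6 and 84.7% with 0.07. The medians in this paragraph include filled-in values. Over members listed by all 6 libraries the same 3 medians were −0.17, −0.04 and 0.05. Each of the 4 position classes compared showed a gradient of this kind, and its part in the difference of members from other regions was not tested. At 35 to 40% GC the median change was −0.20 for gene-body regions more than 50 kb from a start site, −0.16 for intergenic regions within 50 kb and −0.08 for gene-body regions within 50 kb, so members had the lowest median of the 4. Above 50% GC the 4 classes lay between 0.01 and 0.09.

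**Figure D3:**
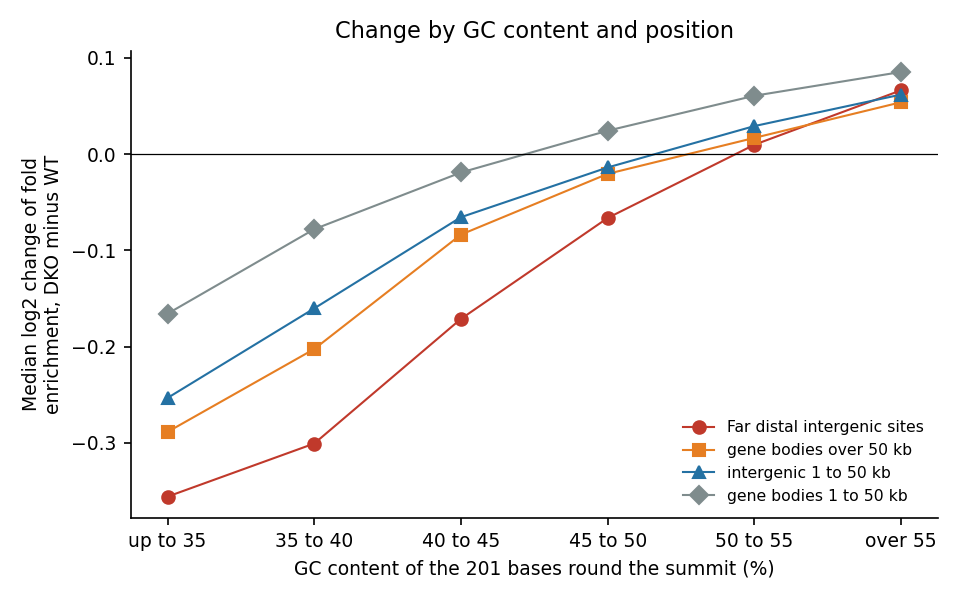
Median log2 change of fold enrichment, DKO minus WT (y axis), by GC content of the window around the summit in percent (x axis) for far distal sites (red circles), gene-body regions more than 50 kb from a TSS (orange squares), and intergenic (blue triangles) or gene-body (grey diamonds) regions 1 to 50 kb from a TSS. Far distal sites had the lowest median of the 4 classes in each bin up to 50 to 55% GC, from −0.36 in the poorest bin to 0.01, and stood at 0.07 in the richest. Medians include filled-in values for libraries without a line.

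Within ranges of GC content up to 50% the median change, again with filled-in values, also differed with distance. Members of 40 to 45% GC had a median of −0.15 at 50 to 100 kb (2228 sites), −0.17 at 100 to 200 kb (1013) and −0.36 beyond 200 kb (225). Their listing gap, DKO minus WT, was −9.49, −12.1 and −22.1 percentage points in that order. At 45 to 50% GC the medians were −0.06, −0.07 and −0.13, with gaps of −5.60, −7.78 and −11.8 points. Above 50% GC the medians were 0.02, 0.02 and 0.03, while the gaps were −0.53, −2.20 and −7.33 points.

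Every chromosome showed the pattern in the same direction: on 19 of 19 the median change of members was below 0 and below that of the other regions, and on 19 of 19 members were listed more often in WT. The chromosomes share libraries and a joint normalization, so they are not independent repeats. The smallest gap was on chromosome 13, with a median of −0.05 over 687 members and listing of 84.1% against 79.7%. That chromosome also had the densest set, 45.01 members per eligible Mb. The largest median change was −0.23 over 558 members on chromosome 16, with listing of 84.3% and 68.3%. Of the chromosomes that carry the deleted genes, 16 holds Hmgn1 and 4 holds Hmgn2, and on chromosome 4 the median was −0.11 over 818 members.

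The members fell into 2091 of the 3523 stretches between genes that held eligible sequence. A single member was found in 492 of the stretches, and the 307 with 10 or more held 5075 members (46.1%). Median length of a stretch with a member was 176 kb. Density fell with length, from 42.4 members per eligible Mb in stretches of 100 to 200 kb to 15.7 in those over 500 kb. The median log2 change was −0.09 in stretches of 100 to 200 kb (3917 members), −0.12 at 200 to 300 kb (3097), −0.19 at 300 to 500 kb (2318) and −0.32 above 500 kb (1107). These medians include filled-in values and so partly restate the listing. Over members listed by all 6 libraries, with nothing filled in, they were −0.05, −0.08, −0.11 and −0.18. In the longest class members were listed at 82.4% ± 3.57 in WT and 65.2% ± 0.666 in DKO (SD, n = 3). Their median GC was 41.3%, against 44.8% in stretches of 100 to 200 kb.

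**Figure D4:**
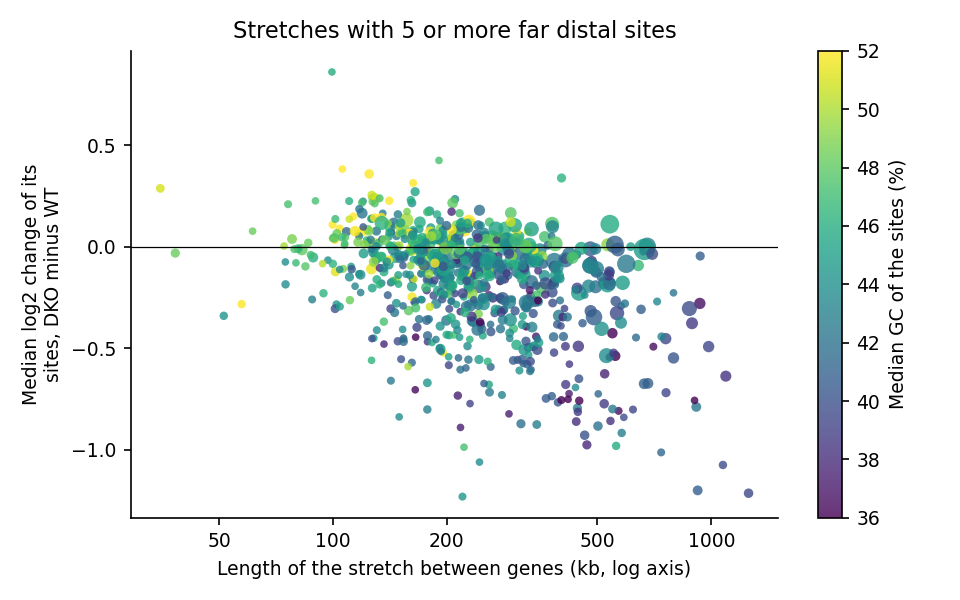
Each point is 1 of the 774 stretches between genes that hold 5 or more far distal sites: its length in kb (x axis, log scale), the median log2 change of its sites, DKO minus WT (y axis), point area by number of sites and colour by median GC in percent. In 563 of the 774 stretches the median was below 0, and across them Spearman's rho with length was −0.40 and with GC 0.50, given as a description since stretches share libraries. Medians include filled-in values for libraries without a line.

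Stretches with the most members were not those with the largest change. The richest was the 666 kb on chromosome 8 between Pard3, a cell polarity gene, and Mir21c next to Nrp1, the neuropilin co-receptor of semaphorins and VEGF. It held 67 members, 39 of them listed by all libraries, with 52, 55 and 54 listed in WT and 50, 58 and 51 in DKO and a median change of −0.01. On chromosome 11 the 596 kb between Gm11986 and Gm27393 held 48 members, between the coding genes Igfbp3, an IGF-binding protein, and Tns3, a focal adhesion protein. Of these 35, 35 and 37 were listed in WT and 35, 35 and 27 in DKO, with a median of −0.08. The 556 kb between Mterf1b and Fzd1, a Wnt receptor gene, held 45 members with a median of 0.01, and the 677 kb between Gm42785 and 1700017G19Rik on chromosome 3 held 43 with a median of 0.00. Listing overlapped between genotypes in each of these 4.

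The second richest stretch was on chromosome 18, 539 kb between Gata6, a zinc-finger transcription factor gene of endoderm and heart, and AC090479.1. It held 50 members, of which 41, 37 and 37 were listed in WT and 39, 38 and 42 in DKO, and its median change was 0.11. It also held the member with the largest rise, chr18:11551858-11552336, 72.6 kb from the start of AC090479.1, which no WT library listed and which read 15.1, 13.7 and 13.5 in DKO. Limma gave it a change of 3.27 (SE 0.22, log2; adjusted p = 0.0012), resting on filled-in WT values.

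The longest 5 stretches had medians, with filled-in values included, from −1.21 to −0.64, which some shorter stretches matched or passed. The 1255 kb on chromosome 1 between 9330185C12Rik and Gm4854, within the interval from Dsel to Cntnap5a, held 10 members. All 10 were listed in each WT library, and 6, 8 and 7 in DKO, with a median change of −1.21 and all 10 negative. The 1181 kb between Gm42581 and Gm19102 on chromosome 6, between Ankrd7 and the potassium channel gene Kcnd2, held 4 members with a median of −0.65. The 1093 kb between Gm38269 and Gm29514, between Rgs18 and Brinp3 on chromosome 1, held 15, of which 12, 9 and 13 were listed in WT and 11, 9 and 7 in DKO, with a median of −0.64. The 1074 kb between Gm12004 and 4930554G24Rik on chromosome 11, flanked by Cobl, an actin nucleator gene, and Pom121l12, held 7, all negative, with a median of −1.07. Listing there was 7, 4 and 7 in WT and 2, 2 and 1 in DKO. Only 1 of these 7 members was listed by all 6 libraries, so that median rests mostly on filled-in values. The longest of all, at the start of chromosome 1 up to 4933401J01Rik, is mostly unsequenced and held 1 member in 22.3 kb of eligible sequence.

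The 5 members farthest from a start site among those listed by all libraries lay in these stretches. The farthest, chr1:114673691-114674640, 545 kb from Gm4854, read 15.3, 13.2 and 15.7 in WT and 13.1, 9.07 and 10.5 in DKO. The highest DKO value stayed under the lowest WT value, yet limma did not call it (log2 change −0.28, SE 0.15, adjusted p = 0.45). Next came chr11:13523556-13524780, whose window between Gm12004 and 4930554G24Rik is shown above and holds none of the motif letters. It read 18.7, 12.6 and 16.5 in WT and 4.75, 3.68 and 3.93 in DKO, and all WT values stood far above all DKO values. Limma called it lower by column 7 (log2 change −1.79, SE 0.17, adjusted p = 0.0065) and by column 8 (−2.87, adjusted p = 0.0037). Over the alternatives run, apart from the fit of regions listed by all 6, its change stayed between −1.94 and −1.66. Its limma adjusted p there lay between 0.00083 and 0.26. The fit of regions listed by all 6 gave −1.79 (limma adjusted p = 1.7e-06).

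The site between Gm42581 and Gm19102, chr6:20290433-20291093, holds AP-1 and TEAD letters 502 kb from a start site. Its fold enrichment was 15.2, 11.1 and 19.7 in WT and 6.99, 9.92 and 7.21 in DKO, which did not overlap. The change of −0.74 (SE 0.15) had an adjusted p of 0.13 over all regions in limma and of 0.016 over those listed by all 6. Both remaining sites, chr1:145897444-145898215 and chr1:145940187-145940544, share the stretch between Gm38269 and Gm29514 and had changes of −0.80 and −0.88, neither called over all regions by limma (adjusted p = 0.15 and 0.24). Over the regions listed by all 6 the first was called (adjusted p = 0.020) and the second was not (adjusted p = 0.059).

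Of the 15 members called lower in the fit over all kept regions 7 were listed by all libraries, and the 5 with the largest change are given here, chosen after their values were seen. After the Gm12004 site, the second was chr1:26291331-26292064, an AP-1 bearing window 174 kb from Gm19123 in the interval beyond Adgrb3, an adhesion receptor gene. It read 16.9, 13.7 and 19.1 in WT and 6.99, 6.24 and 4.92 in DKO (log2 change −1.29, SE 0.13, limma adjusted p = 0.0096). The chr14:80269271-80269545 site, 54.3 kb from Gm17923, read 12.8, 11.1 and 13.8 against 5.03, 4.53 and 4.59 (−1.23, SE 0.14, limma adjusted p = 0.018). The last 2 were on chromosome 18. The chr18:14113007-14113616 site, 140 kb from Zfp521, a zinc-finger gene of the preadipocyte lineage, read 21.5, 17.1 and 24.8 against 7.83, 6.52 and 9.18 (−1.28, SE 0.16). The chr18:29602306-29602956 site read 14.9, 10.2 and 17.02 against 6.43, 4.53 and 4.92 (−1.22, SE 0.17). In each of these the lowest WT value was above the highest DKO value.

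**Figure D5:**
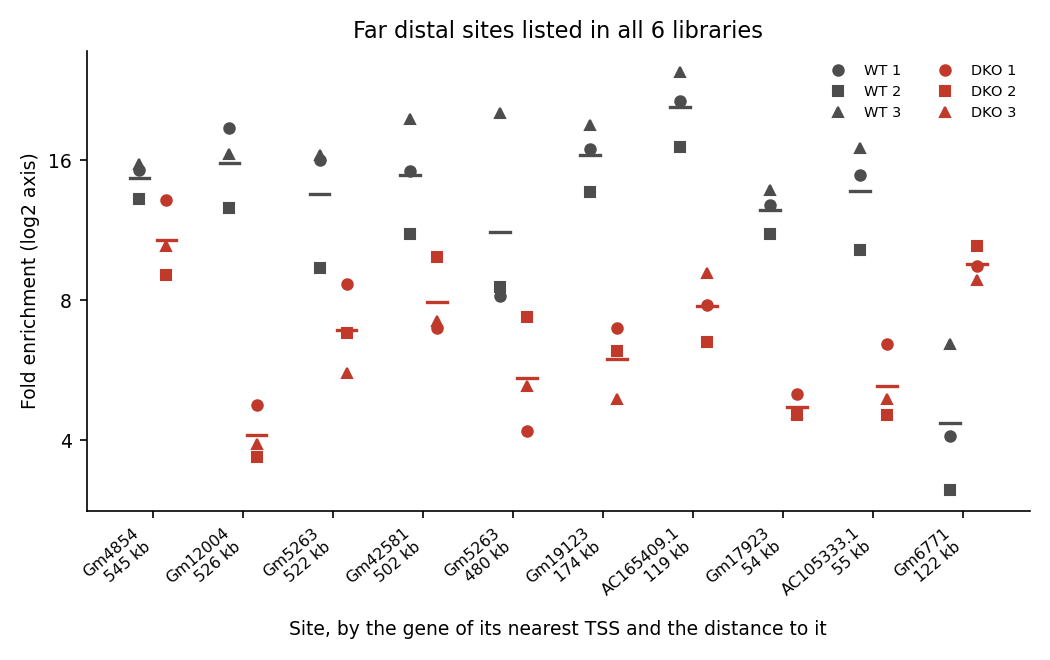
Fold enrichment (y axis, log2 scale) in the 3 WT libraries (grey) and the 3 DKO libraries (red) for the 5 farthest sites, 4 further sites called lower and 1 higher, all listed by all 6 libraries, named by the gene of the nearest TSS and its distance. Symbols are libraries and bars are geometric means of each genotype. For the site 526 kb from Gm12004 the WT libraries stood from 12.6 to 18.7 and the DKO libraries from 3.68 to 4.75.

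The 5 called members with the largest fitted falls were all listed in the 3 WT libraries and in no DKO library, and they were also the 5 WT-only members with the highest column 8. The first, chr2:10297624-10298176 between Itih5 and Gm13261, lies 72.3 kb from the start of Sfmbt2, a Polycomb-related gene. Its values were 10.6, 9.01 and 13.0 in WT, with no line in DKO. The filled-in DKO values were the lowest of each list, 1.53 to 1.55 before normalization, and a library without a line can still hold signal under its own limit. The others read 7.30, 8.25 and 10.9 (chr11:92539548-92540202, towards Car10), 8.47, 5.69 and 13.2 (chr16:12516773-12517546, towards Shisa9), 8.76, 5.98 and 12.03 (chr4:39661760-39662191) and 5.84, 7.40 and 10.9 (chr16:82431811-82432207, towards Ncam2). WT replicate 3 gave the highest value at each. Adjusted p from limma ran from 0.0073 to 0.050, and reached 0.34 for all 5 when a library was left out or the setting changed.

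Beside the site in the Gata6 stretch, 3 further members were called higher, each listed in the 3 DKO libraries only. The chr9:115547845-115548308 site between Gm5921 and n-R5s92 has an AP-1 match 14 bases before its summit and read 9.80, 11.1 and 7.91 in DKO. The chr11:112921502-112922085 site, 134 kb from Sox9, the chondrogenic transcription factor gene, read 8.69, 9.97 and 7.01. The chr17:42515002-42515683 site between Ptchd4 and Opn5 read 8.67, 9.98 and 6.88. Fitted changes of these 3 were 2.73, 2.56 and 2.55, with limma adjusted p of 0.0073, 0.014 and 0.014. The next smallest p among higher members was at chr17:41223578-41223854, 122 kb from Gm6771, which every library listed: 4.09, 3.13 and 6.46 in WT and 9.51, 10.5 and 8.85 in DKO. Its change of 1.32 (SE 0.19) was not called over all regions (limma adjusted p = 0.051) and was called over regions listed by all 6 (adjusted p = 0.00071). The remaining DKO-only site named by the rule, chr5:118811995-118812208, lies 46.6 kb from Med13l, a Mediator subunit gene, and read 7.24, 4.16 and 5.12.

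In these libraries a peak within 1 kb of the start of Hmgn2 was listed in the 3 WT libraries, at 7.89, 7.53 and 9.45, and in no DKO library, while Hmgn1 was listed in all 6. Of 8 adipose stromal marker genes 7 had a promoter peak in every library, and Dlk1 in 5. Promoters of Adipoq, Cidec, Ptprc, Epcam, Myod1 and Myf5 were listed in none. Krt8, an epithelial marker, was listed in 4 libraries of both genotypes, and Adgre1, a macrophage marker, in 2 DKO libraries only, at 3.91 and 3.40. Pecam1, an endothelial marker, Cd68, a macrophage marker, and Plin1, an adipocyte marker, were listed in all 6, with Pecam1 from 12.2 to 17.2 in WT and 10.3 to 11.8 in DKO. Cdh5, another endothelial marker, was listed in the 3 DKO libraries only. The part of other cells in the results above was not tested. WT replicate 3 had the tallest lists, with a median fold enrichment of 6.75 over members against 5.84 and 5.12 in the other WT libraries. Without it the members' median change was −0.14, and their share of listed regions differed by −0.59 percentage points against −0.65 with all libraries. Read totals are not given in these files, so the depth behind each value is unknown.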

How the data were processed

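ATAC-seq libraries of WT and DKO preadipocytes at day 0 (3 of each) were analysed from the authors' deposited peak lists, 1 per library. Per the labels and the study's methods, reads were trimmed with cutadapt 1.18, mapped to mm10 with Bowtie2 2.3.4.3 and called per library with MACS2. The file names add duplicate and mitochondrial read removal, a Tn5 shift, a p-value limit of 0.01 and a cap of 300000 lines. Lists held 299433 to 299620 lines, and their lowest column 9 values ran from 1.61 to 3.74. The authors deposited column 7 as a fold enrichment (ratio) over local background, column 8 as the −log10 of the p-value, column 9 as the −log10 of the q-value and column 10 as the summit offset.

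Touching or overlapping intervals were merged, and a region took the highest value in each library. Distances ran from the nearer edge to every TSS of GENCODE M21. Log2 values were quantile normalized and fitted with limma 3.58.1 (R 4.3.3), two-sided, trend eBayes, Benjamini-Hochberg over all kept regions, threshold 0.05. Motifs and GC were read from 100 bases before to 100 after the tallest summit with Python 3.11.15. Sites named were the 10 tallest listed by all 6, the 5 lowest called, the 4 called higher and the next smallest p, 5 WT-only and 5 DKO-only with the highest column 8, the 5 farthest listed by all 6 libraries, and the 5 richest and 5 longest stretches. The members and lists were chosen with earlier results of these data known.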

Additional observations from a re-analysis of the deposited data

How the results depend on the processing

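Calls counted at an adjusted p were sensitive to the settings, and medians kept their direction for members under each alternative run. Counts are given as lower then higher in DKO. Median centring gave 37 and 8 by column 7, 152 and 36 by column 8, and medians of −0.098 (members) and 0.068 (others). No scaling gave 2 and 2, 59 by column 8 for lower, 132 higher at an unadjusted p, and medians of −0.29 and −0.13. Regions listed by all 6 gave 127 and 8, 130 and 15, 874 and 192 unadjusted, and a members' median of −0.076. Without the eBayes trend the counts were 350 and 76, and 19 lower by column 8. A column 9 limit of 5 gave 37 and 8, 203 and 28, 160 WT-only and 17 DKO-only sites, a share of listed regions lower by −0.35 percentage points and a median rank lower by −2.07. Beyond 100 kb from a start site there were 3778 members, with 7 and 0, 3 and 0, 134 and 12, −0.31, −2.44 and a median of −0.19. With protein-coding genes only there were 34905, with 37 and 9, 28 and 7, 790 and 318, −1.26, −1.47 and medians of −0.077 and 0.027. The 50000 best lines gave 56 WT-only and 12 DKO-only sites, and a cover of 0.5 a share difference of −0.90. The cause of these shifts was not tested, beyond the fewer or more sites that a limit leaves.

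Leaving out 1 library gave 0 lower and 0 to 1 higher by column 7, 0 and 0 by column 8, 484 to 620 WT-only and 105 to 172 DKO-only sites, and medians of −0.18 to −0.14 for members and −0.00063 to 0.030 for the others, the lowest without WT replicate 3. With the replicate number as a replicate block the counts were 0 and 0 by column 7 (1374 and 286 unadjusted) and 2 and 1 by column 8. Same-numbered libraries did not deviate together (r from −0.053 to 0.0056 by column 7), so the numbers were not taken as pairs. Without chromosome 18, an alternative chosen after seeing the data, 11 and 3 remained by column 7. The basic transcript set, also added, gave 11652 members.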

Other observations

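Chromosome X lay outside the rule for members. By the same position limits it held 298 far distal regions, which were listed at 82.6, 73.8 and 87.9% in WT and 66.4, 70.5 and 63.4% in DKO. The other 3114 kept regions on X were listed at 83.1% ± 4.52 in WT and 74.0% ± 1.92 in DKO (SD, n = 3).

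Members whose window matched the CTCF consensus (218 sites) were listed at 92.2% in WT and 81.5% in DKO, with a median log2 change of −0.20. Members with AP-1 letters had a median of −0.12 and those without −0.14.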
